A study of Cicer arietinum with 8 samples.

Results

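In the chickpea root transcriptome, 130 of 27881 gene loci had their lowest level, by a set step, in drought-stressed ICC1882 alone. ICC1882 is the drought-sensitive genotype (DS) of the study and ICC4958 the drought-tolerant one (DT), each sampled with water (control, C) and without (drought, D). These genes are called the members below. They were selected on the measured expression values themselves: on the scale of log2(FPKM + 1), DS(D) was at least 1 below each of DS(C), DT(C) and DT(D), and DT(D) was less than 1 below DT(C). FPKM is the number of sequenced fragments scaled to the length of the transcript and to the number of mapped fragments, so that genes of different length can be compared. Loci without a gene identifier were left out. The median step below the lowest other condition was 1.22, and 51 of the 130 members met the rule under all 3 other scalings tried.

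The plants were seedlings grown in a growth chamber, and whole roots were harvested at 27 days of age. Water was withheld for 11 days from day 16 in DS(D) and DT(D), while DS(C) and DT(C) were watered every other day. These times are those of the sample descriptions, and the study's methods give an earlier start and a longer stress. The sample descriptions name no transgene and no other treatment for any group. Each condition had 2 libraries, 8 in all, and the deposited value of a gene in a condition is 1 pooled value over both. No spread between libraries can be had from pooled values, and every difference below is a description without a test. The reads behind a value are not given, and low FPKM values rest on the fewest reads for a transcript of a given length. In whole roots, fewer cells of a type and less RNA per cell cannot be told apart. No list of root marker genes could be matched to the identifiers, so the tissue label was not checked. The FPKM values of all loci summed to less in DS(D) than elsewhere, with the sums of DS(C), DT(C) and DT(D) higher by 0.47, 0.19 and 0.17 on the log2 scale.

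Roots are the first organs to meet drying soil. In plants generally, water deficit raises abscisic acid, which turns on genes for protective proteins, compatible solutes and detoxification, while genes of growth, cell division and wall extension are often turned down. Genotypes of a crop can differ both in which genes respond and in how far a shared response goes. The deposited table gives members by identifier without names or descriptions, and none of them is among the 114 genes that the study discussed by identifier and that were examined here. No function is therefore given for a member.

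The members were low in DS(D), as the rule required, and their medians in the other conditions were close to each other. FPKM values of the 130 members ranged from 1.34 to 2626 in DS(C), with a median of 22.1. In DS(D) they ranged from 0 to 415, with a median of 6.95. Both DT conditions were close to DS(C), with a range of 1.51 to 1266 and a median of 24.4 in DT(C), and a range of 1.49 to 863 and a median of 23.6 in DT(D). The level in DS(D) was between 0% and 48.9% of that in DS(C), with a median of 33.0%. Over the 121 members above 0 in DS(D), the FPKM ratio of DS(C) to DS(D) was between 2.04 and 21.4, with a median of 2.97. Together the members made up 0.673% of the summed FPKM in DS(C), 0.300% in DS(D), 0.841% in DT(C) and 0.768% in DT(D).

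**Figure D1:**
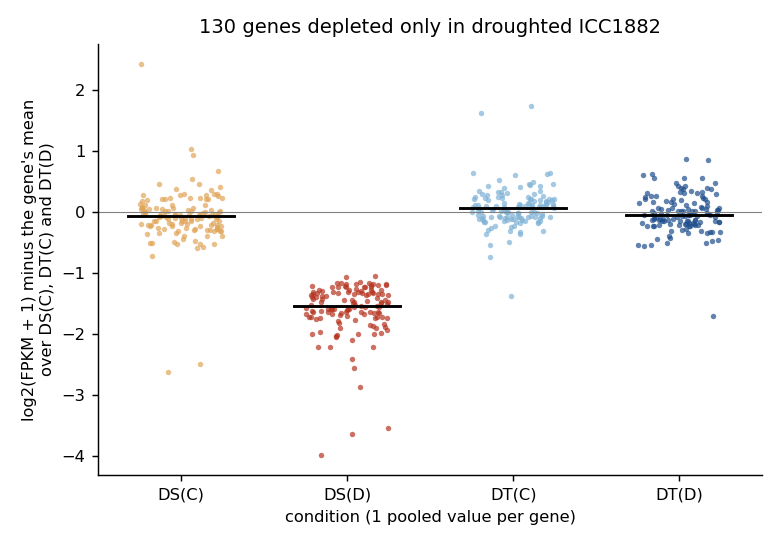
Each point is 1 of the 130 members, plotted by condition on the x axis. The y axis is log2(FPKM + 1) minus the gene's own mean over DS(C), DT(C) and DT(D), and black lines are medians over members. The low position of DS(D) is what the rule required, while the few points far from 0 in DS(C), DT(C) and DT(D) are genes whose other conditions also differed, such as Ca_14115, Ca_10424 and Ca_14767.

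The rule fixes 2 of the comparisons outright. All 130 members were at least 1 below DS(C) in droughted DS roots, where 6.2% of the 16151 identifier loci that could have met the rule (FPKM of at least 1 in DS(C), DT(C) and DT(D)) were this much lower. All 130 were also at least 1 higher in DT(D) than in DS(D), against 3.29% of those loci. Changes in the opposite directions, which the rule shuts out, were found in 2.22% of the loci for DS(D) above DS(C) and 1.62% for DT(D) below DS(D). Nothing is read from these counts. The rule as a whole took 0.805% of the 16151 loci. That these loci could have met it refers to their level only, and 957 of them were past its limit on DT. The step that separated DS(D) from the lowest of the other conditions, here called the margin, ran from 1.00 to 2.38 with a median of 1.22. It was under 1.1 in 34 members, from 1.1 to under 1.5 in 73, from 1.5 to under 2 in 20, and at least 2 in 3.

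Ca_19161 had the widest margin, 2.38. Its FPKM was 61.4 in DS(C), 9.11 in DS(D), 51.7 in DT(C) and 62.5 in DT(D). It was thus near its control level in droughted DT and far below it in droughted DS. Ca_21011 followed with a margin of 2.11 and FPKM values of 20.5 in DS(C), 2.90 in DS(D), 23.7 in DT(C) and 15.8 in DT(D). Ca_19486 was listed at 0 in DS(D) and at 4.68, 3.16 and 3.24 in DS(C), DT(C) and DT(D). In both genes the other conditions lay near each other.

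Ca_14115 was the extreme member by its drought difference in DS, with an FPKM of 66.6 in DS(C) and a listed 0 in DS(D), a difference of -6.08 on the log2(FPKM + 1) scale. Its DT values were low as well, 6.48 in DT(C) and 2.81 in DT(D), so that DS(C) stood alone as the high condition. Ca_14576 measured 60.7 in DS(C), 15.4 in DS(D), 88.4 in DT(C) and 77.4 in DT(D). Here both DT conditions were above the watered DS roots.

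Ca_08546 had nearly equal levels outside DS(D), with FPKM values of 9.81 in DS(C), 10.03 in DT(C) and 10.13 in DT(D) against 1.95 in DS(D). Ca_18774 measured 58.6 in DS(C), 11.6 in DS(D), 46.5 in DT(C) and 44.0 in DT(D). Ca_10010 measured 105 in DS(C), 30.0 in DS(D), 123 in DT(C) and 142 in DT(D). The margins of the last 3 genes were 1.87, 1.84 and 1.77.

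**Figure D2:**
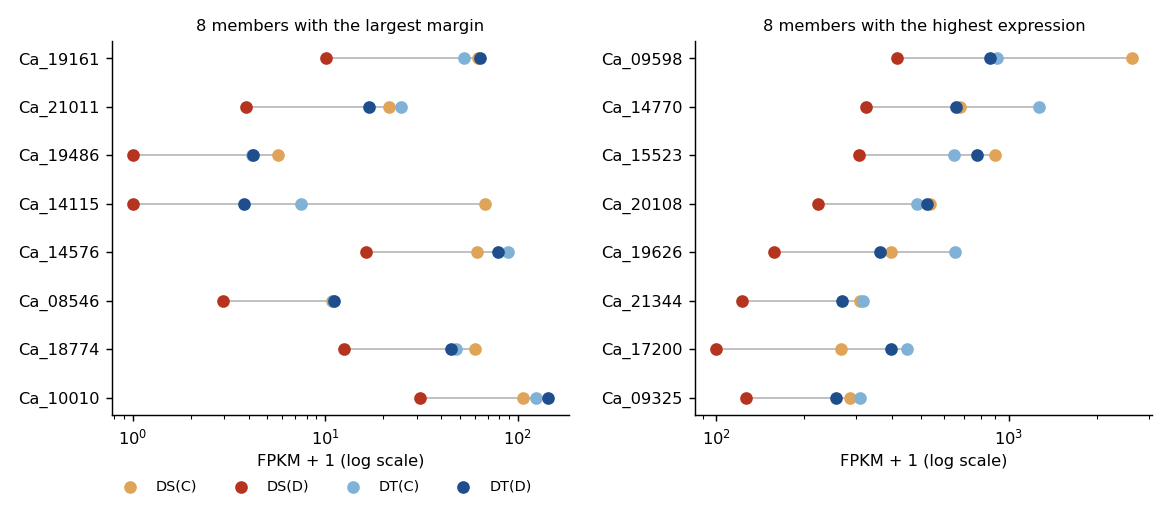
FPKM + 1 on a log axis for the 8 members with the largest margin (left) and the 8 with the highest expression in the lowest of the other conditions (right), 1 pooled value per condition and gene, coloured by condition, with a grey line over the range. DS(D) is the lowest point in every row by the rule, at 0 for Ca_19486 and Ca_14115, and Ca_09598 reaches 2626 in DS(C).

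Members were found at all levels of expression, but membership of the abundant ones depended on scaling. Of the 24 members with an FPKM of at least 100 in DS(C), 2 still met the rule after the columns were rescaled to the same summed FPKM, 16 after centring on column medians and 3 after centring within expression groups. None of the 8 genes described next met it after the rescaling or after the centring within groups, where the margin of Ca_09598, for example, was 0.886 and 0.824. Ca_09598 had the highest level, with an FPKM of 2626 in DS(C), 415 in DS(D), 909 in DT(C) and 863 in DT(D). Its DS(C) value was far above both DT values, and its DS(D) value was below them. Ca_14770 measured 678 in DS(C), 323 in DS(D), 1266 in DT(C) and 660 in DT(D), close to the limit of the clause on DT. Ca_15523 measured 892 in DS(C), 308 in DS(D), 650 in DT(C) and 778 in DT(D).

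Ca_20108 measured 538 in DS(C), 222 in DS(D), 483 in DT(C) and 526 in DT(D), a flat profile apart from DS(D). Ca_21344, with 309, 122, 317 and 267 in DS(C), DS(D), DT(C) and DT(D), and Ca_09325, with 286, 126, 310 and 257 in the same order, had a like profile. Ca_19626 was highest in watered DT roots, at 394 in DS(C), 157 in DS(D), 656 in DT(C) and 361 in DT(D). Ca_17200 was higher in both DT conditions, at 266 in DS(C), 99.0 in DS(D), 449 in DT(C) and 393 in DT(D).

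In DS(C), 31 members (23.8%) had an FPKM under 10, 75 (57.7%) from 10 to under 100, and 24 (18.5%) of at least 100. Among the loci that could have met the rule these shares were 35.0%, 50.7% and 14.3%. When those loci were ordered by the mean log2(FPKM + 1) of DS(C), DT(C) and DT(D) and divided into 10 groups of equal size, the number of members per group lay between 6 and 20, and the top group held the 20. The drought difference in DS changed with expression level over all loci. Its median was 0.16 in the lowest group and -0.56 in the highest, whereas the median drought difference in DT stayed between 0.00 and 0.06. DS(C) entered the ordering and DS(D) did not, whereas both DT conditions did, and a trend in DS can arise from this alone. How much of the trend comes from the ordering was not tested. The median of DT(C) minus DS(C) was 0.17 in the lowest group and -0.34 in the highest. For DT(D) minus DS(D) these medians were 0.04 and 0.26, so the genotypes differed with level in the watered roots too. DS(D) was the lowest of the 4 conditions for 22.6% of the loci in the lowest group and 57.5% in the highest. The part of this general shift in the high-level members was not tested. The centring within groups given below used groups ordered in another way.

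**Figure D3:**
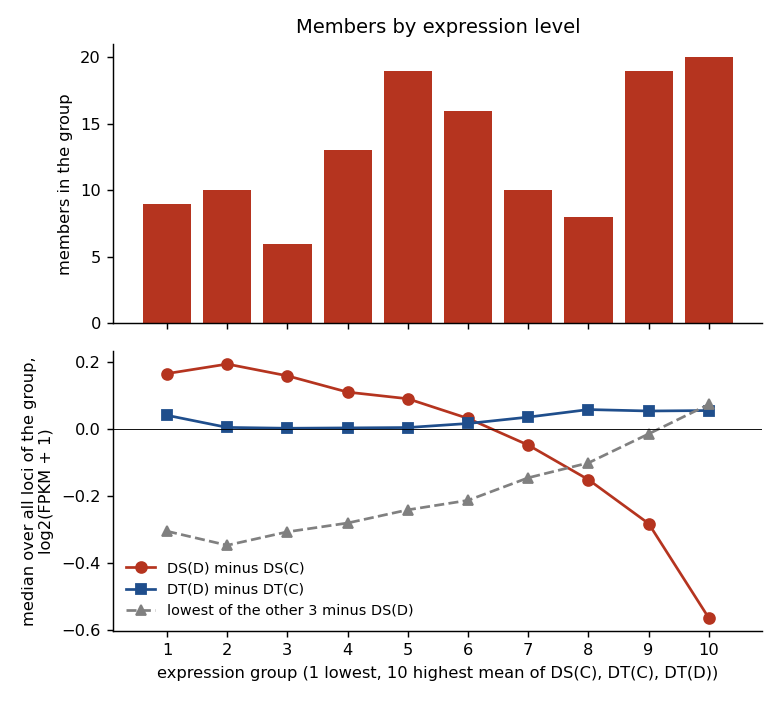
Top, the number of members in each of 10 groups of the 16151 loci, ordered by mean log2(FPKM + 1) over DS(C), DT(C) and DT(D). Bottom, the median over all loci of a group of the drought difference in DS, of the drought difference in DT and of the margin, on the log2(FPKM + 1) scale. The DS median runs from 0.16 in group 1 to -0.56 in group 10 and the DT median stays near 0.

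At the low end, 18 members had an FPKM under 1 in DS(D), and 9 of them were listed at 0. Besides Ca_19486 and Ca_14115, Ca_07900 was at 0 in DS(D) with 2.60 in DS(C), 4.46 in DT(C) and 2.17 in DT(D). Ca_10424 was at 0 in DS(D) and 1.58 in DS(C) but 51.8 in DT(C) and 28.1 in DT(D). It was thus a low gene in DS under both conditions and a well expressed one in DT. The other 5, Ca_05276, Ca_04746, Ca_26256, Ca_00479 and Ca_11903, had at most 4.94 in any condition. A listed 0 gives no fold, and its reads are not known.

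Whether the members responded to drought in DT was only limited by the rule on the lower side. DT(D) was above DT(C) for 52 members (40%) and below it for 78 (60%), with a median difference of -0.08 and a range from -0.997 to 1.81. Among the loci that could have met the rule and had DT(D) less than 1 below DT(C), DT(D) was the higher for 56.7%. The 2 values lay within 0.5 of each other for 95 members, DT(D) was at least 0.5 higher for 11 and at least 0.5 lower for 24. A single member, 0.769% of them, was at least 1 higher in DT(D) than in DT(C), where 2.1% of the loci were, and none was 1 or more lower, where 5.93% of the loci were. DT(C) and DT(D) both entered the rule, so these counts describe the selection and carry no test.

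That member was Ca_21000, with an FPKM of 37.4 in DS(C), 1.75 in DS(D), 6.75 in DT(C) and 26.1 in DT(D). Its drought differences had opposite signs in the genotypes, 1.81 in DT and -3.80 in DS. Ca_09575 measured 222 in DS(C), 106 in DS(D), 213 in DT(C) and 390 in DT(D). Ca_07391 measured 30.8, 10.8, 26.4 and 47.9, and Ca_04992 8.29, 3.06, 9.06 and 16.3, in DS(C), DS(D), DT(C) and DT(D). In these 3 genes the watered roots of both genotypes were close, and the droughted ones differed from them in opposite directions. Ca_26256 was at 1.68, 0, 2.50 and 4.94 in the same order.

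Some members came close to the limit set on DT. Ca_14467 measured 79.2 in DS(C), 15.3 in DS(D), 103 in DT(C) and 51.0 in DT(D), which put its DT difference of -0.997 just inside the limit. Ca_14115, described above, followed with a DT difference of -0.975. Ca_11474, with a DT difference of -0.972, measured 2.997, 0.940, 6.69 and 2.92 in the same order. The FPKM ratio of DT(D) to DT(C) was 0.433 in Ca_14115, 0.437 in Ca_11474, 0.486 in Ca_07900 and 0.496 in Ca_14467. With a pseudocount of 0.1 in place of 1, these genes no longer met the rule. The clause on DT left out 43 genes for which DS(D) was at least 1 below all other conditions but DT(D) was 1 or more below DT(C). Ca_17578, with a DT difference of -1.01, was the nearest of them and measured 11.2 in DS(C), 1.72 in DS(D), 12.6 in DT(C) and 5.74 in DT(D). Ca_14467 and Ca_17578 thus lay on either side of the limit with nearly the same DT difference.

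**Figure D4:**
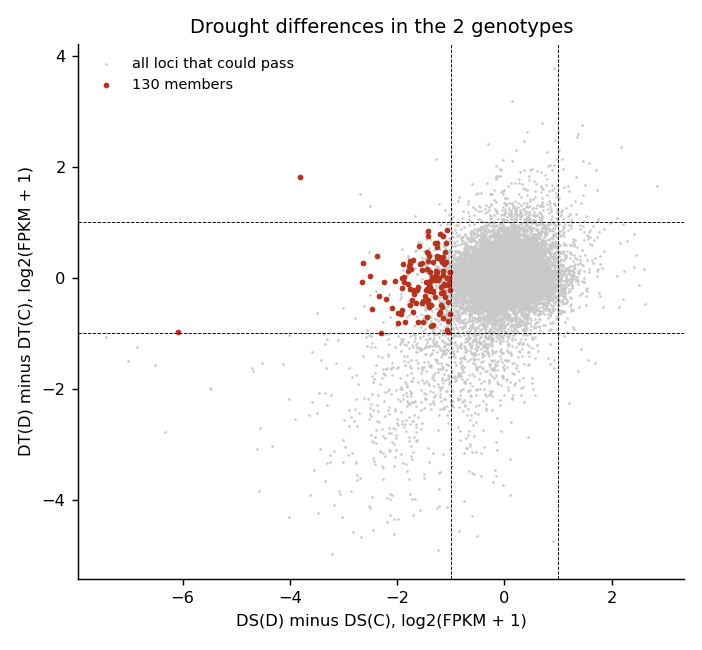
Drought differences, D minus C in log2(FPKM + 1), of DS on the x axis and DT on the y axis for the 16151 loci that could have met the rule (grey) and the 130 members (red). Dashed lines are at 1 and -1. The members fill the strip left of -1 in DS between -0.997 and 1.81 in DT, and Ca_14115 lies farthest left at -6.08.

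For most of these genes DS(C) and DT(C) were less than 1 apart, as for most loci that could have met the rule. Both conditions entered the rule, each as at least 1 above DS(D), so the counts here describe the selection and carry no test. DT(C) was above DS(C) for 87 members (66.9%) with a median difference of 0.13, and for 55.8% of the loci that could have met the rule with a median of 0.07. It was at least 1 higher for 5 members (3.85%) against 4.62% of the loci, and at least 1 lower for 4 (3.08%) against 2.32%. The order of the other conditions varied. The highest level was in DT(C) for 58 members, in DT(D) for 39 and in DS(C) for 33. The 3 conditions lay within 0.5 of each other for 66 members (50.8%, against 49.8% of the loci) and within 1 for 117.

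The 5 members higher in watered DT roots included Ca_10424 and Ca_14767. Ca_14767 measured 58.7 in DS(C), 27.6 in DS(D), 1036 in DT(C) and 603 in DT(D), so that its difference between genotypes was much larger than its margin. Ca_23388 measured 10.5, 4.16, 25.7 and 15.3, and Ca_21935 measured 2.82, 0.327, 7.17 and 3.73, in DS(C), DS(D), DT(C) and DT(D). Ca_28086 was at 3.33, 0.817, 7.76 and 8.38. In all 5 genes DS(C) lay below both DT values and above DS(D). In Ca_23388 and Ca_21935, however, DT(D) was only 0.51 and 0.31 above DS(C) on the log2(FPKM + 1) scale.

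The 4 members lower in watered DT roots were Ca_14115, Ca_21000, Ca_09598 and Ca_09727, the last with 22.1 in DS(C), 3.43 in DS(D), 8.88 in DT(C) and 12.0 in DT(D). Ca_11820, at 22.1, 5.24, 12.2 and 14.6, came next without reaching a difference of 1. At the other extreme, Ca_12044 measured 186 in DS(C), 189 in DT(C) and 189 in DT(D) and only 90.9 in DS(D). Ca_01970 measured 22.1, 22.1 and 21.6 in DS(C), DT(C) and DT(D) and 8.41 in DS(D). Ca_15917, with 5.99, 5.77 and 5.80 against 2.02, and Ca_15625, with 3.47, 3.75 and 3.75 against 0.828, had ranges under 0.1 as well. With Ca_08546 these were the 5 members with the smallest range over the other conditions, among the 66 that lay within 0.5.

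The rule did not use the position of a locus. Locus numbers follow the merged assembly, and coordinates were not used here. Of the members, 5 pairs were at most 10 numbers apart and 2 pairs had consecutive numbers. Among the 1520 of the 16151 loci that were this close to another member, 10 (0.658%) were members themselves, which was not above the 0.805% of all these loci. Ca_14770 and Ca_14767 were consecutive, and both were higher in DT(C) than in DS(C). Ca_14768, the locus after this pair, was listed at 0 in all conditions but DT(C), where it was at 2.38. Ca_14765, the next in the numbering, was lowest in DS(D), with 27.0 in DS(C), 11.3 in DS(D), 38.2 in DT(C), 21.03 in DT(D) and a margin of 0.84.

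Ca_11821, with 69.6 in DS(C), 25.3 in DS(D), 139 in DT(C) and 121 in DT(D), was consecutive with Ca_11820. The abundant Ca_11822 beside it, at 1511, 707, 1052 and 1095, had a margin of 0.57. The sources used here do not say whether strand was used in counting, so reads of overlapping neighbours could have been shared. Over the 170 loci that were 1 number from a member, were no members and had an FPKM of at least 1 in all conditions, the median drought difference in DS was -0.05, and 10.6% were at least 1 lower. Over all loci with such values these figures were -0.02 and 6.35%.

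A mirrored rule, with DT and DS exchanged, found 108 genes depleted only in droughted ICC4958. Their median FPKM was 24.0 in DS(C), 19.4 in DS(D), 21.7 in DT(C) and 5.22 in DT(D), a deeper low point than the 6.95 of the members in DS(D). Genes at least 1 lower under drought in both genotypes numbered 506 and were more highly expressed, with medians of 69.7 in DS(C), 15.5 in DS(D), 94.5 in DT(C) and 18.0 in DT(D). Before the clause on the other genotype, 173 genes were at least 1 below all other conditions in DS(D) and 139 in DT(D). For the watered roots the same step found 134 genes in DS(C) and 68 in DT(C). All these counts rest on the columns as deposited, where the sum of DS(D) was the lowest. Rescaling to equal sums left 53 genes under the members' rule, and the mirrored rule was not recomputed after it. None of these differences could be tested on pooled values.

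None of the 114 genes examined from the study's pathway, QTL-hotspot and RT-qPCR lists was a member, against 0.805% of the 16151 loci. Unlike those loci, the 114 genes were not filtered by level, here or in the counts below. Some could not have met the rule, such as Ca_08775 and Ca_24310, listed at 0 in all conditions. The nearest was a phosphofructokinase gene, Ca_00673, which codes for the enzyme of the committed step of glycolysis. It measured 70.1 in DS(C), 36.9 in DS(D), 71.0 in DT(C) and 82.3 in DT(D), with a margin of 0.91. The E1 alpha subunit of the pyruvate dehydrogenase complex, which links glycolysis to respiration, was represented by Ca_25091 with 163, 97.8, 166 and 177 in the same order and a margin of 0.73. Both had the members' shape with a smaller step.

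A DREB gene of the QTL-hotspot, Ca_04504, from a family of transcription factors that bind drought-responsive promoter elements, had a margin of 0.75. It measured 122 in DS(C), 10.1 in DS(D), 350 in DT(C) and 17.7 in DT(D), and was therefore low under drought in both genotypes. IMPase, the inositol monophosphatase gene Ca_05134, measured 27.0, 18.5, 34.6 and 37.9 in DS(C), DS(D), DT(C) and DT(D), with a margin of 0.52. GGT1, the gamma-glutamyl transpeptidase gene Ca_12669, which acts in glutathione breakdown, measured 27.7, 11.6, 21.9 and 17.1, also with a margin of 0.52. Between the DREB gene and IMPase lay Ca_10604, with a margin of 0.60, and the pyruvate decarboxylase gene PDC2, Ca_00374, with 0.55. PDC2 measured 374 in DS(C), 108 in DS(D), 178 in DT(C) and 159 in DT(D). These genes were chosen for their margins after the values were seen.

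Of the glycolysis/gluconeogenesis genes, 24 of 44 (54.5%) had their lowest value in DS(D), with a median drought difference of -0.46 in DS and 0.07 in DT. The same held for 6 of 27 glutathione metabolism genes (22.2%), 4 of 17 phosphatidylinositol signaling genes (23.5%) and 7 of 22 QTL-hotspot genes (31.8%), against 31.0% of the 16151 loci. Many of the glycolysis genes were abundant: 15 of the 44 reached the level of the highest of the 10 expression groups, and 13 of these 15 were lowest in DS(D). In that group DS(D) was the lowest for 57.5% of all loci. Of the other 29 glycolysis genes, 11 were lowest in DS(D). In groups 1 to 9 this held for 20.2% to 47.8% of all loci, depending on the group. Whether expression level accounts for the count in the glycolysis genes was not tested. DS(D) was at least 1 below DS(C) for 3 glycolysis genes, 2 glutathione metabolism genes, 3 QTL-hotspot genes and 0 phosphatidylinositol signaling genes, 8 of all 114 genes, where 6.2% of the 16151 loci were. DT(D) was at least 1 below DT(C) for 3, 1, 4 and 1 genes of the same lists and 9 of all 114, where 5.93% of the loci were. DS(D) was at least 1 above DS(C) for 1 glutathione metabolism gene and 1 phosphatidylinositol signaling gene, where 2.22% of the loci were. DT(D) was at least 1 above DT(C) for 2 glutathione metabolism genes and 2 glycolysis genes, 4 of all 114, where 2.1% of the loci were. The study chose these lists on the same samples, so the counts are no independent evidence of direction.

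Near the threshold, the members just inside were Ca_05435, Ca_02238 and Ca_09575, with margins of 1.003, 1.006 and 1.008. Ca_05435 measured 14.5 in DS(C), 5.79 in DS(D), 18.0 in DT(C) and 12.6 in DT(D), and Ca_02238 14.4, 6.67, 23.3 and 14.5. Just outside were Ca_27079, Ca_12458 and Ca_13396, with margins of 0.999, 0.995 and 0.992. Ca_27079 measured 11.1, 5.07, 20.8 and 16.5 in DS(C), DS(D), DT(C) and DT(D), Ca_12458 2.99, 1.00, 3.40 and 5.71, and Ca_13396 5.23, 2.13, 5.89 and 8.11.

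The number of members depended on scaling and pseudocount. Rescaling the columns to the same summed FPKM left 53 genes, 52 of them members, because it raised DS(D) against every other condition. Centring each column on its median gave 118 genes, of which 109 were members, and centring within the 10 expression groups gave 113, of which 96 were members. All 3 of these scalings left 51 members within the rule, 14 of the 31 with an FPKM under 10 in DS(C), 35 of the 75 from 10 to under 100 and 2 of the 24 of at least 100. All 8 members with the largest margin were left, among them Ca_19161, Ca_21011, Ca_19486, Ca_14576, Ca_08546 and Ca_18774, whose margins after rescaling were 2.19, 1.99, 2.07, 1.46, 1.502 and 1.68, whereas none of the 8 most highly expressed was left. A pseudocount of 0.1 in place of 1 gave 289 genes, 126 of them members. Ca_14115, among the 8 with the largest margin, did not meet the rule with it.

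**Figure D5:**
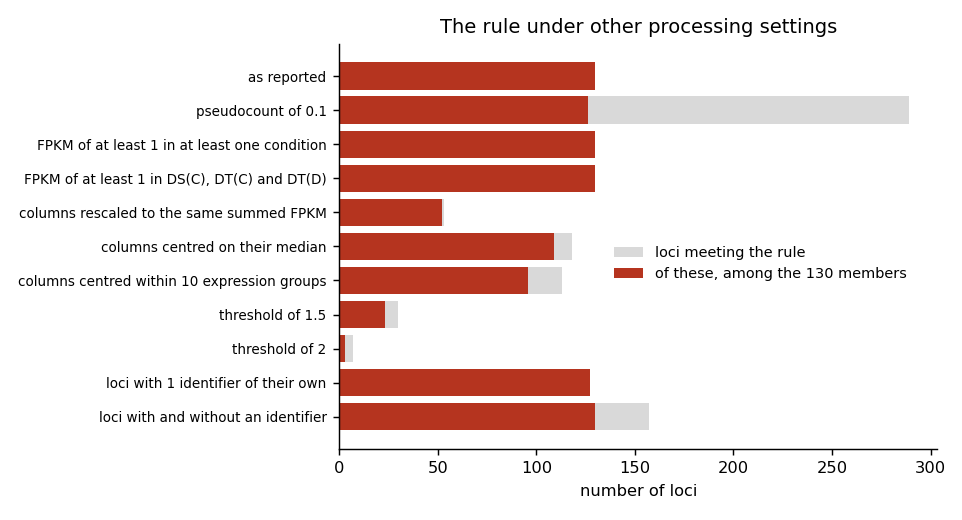
Number of loci that met the rule under each setting on the y axis (grey bars) and how many of them were among the 130 members (red bars), on an x axis from 0. Rescaling to the same summed FPKM kept 52 members and a pseudocount of 0.1 kept 126 among 289 loci.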

How the data were processed

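Root RNA of 8 libraries, 2 per condition, was sequenced on an Illumina HiSeq. The authors used NGS QC Toolkit for read filtering, aligned to the kabuli genome with TopHat2 2.1.1, assembled and quantified loci with Cufflinks and Cuffdiff 2.2.1 (versions from the submitters' processing notes), and deposited 1 FPKM value per locus and condition, pooled over both libraries. FPKM is normalized by the authors for transcript length and mapped fragments, so a gene's value depends on all others in its column. With no value per library, limma was not run. Read depth per library is not in the table.

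Values were taken as log2(FPKM + 1), where small differences of low genes are understated, and a difference of 1 was counted. Members and lists were chosen with earlier results of these data known. Genes named are the 8 members with the largest margin, the 8 with the highest level, the 5 with the largest rise and 3 with the largest fall in DT, the 5 with the largest genotype difference in each direction, the 5 flattest, 3 on each side of the threshold and 3 at 0 in DS(D). Genes named as neighbours, as left out by the DT clause, as at 0 beyond those 3 or from the study's lists were chosen after their values were seen. No member listed several identifiers, and for 3 another locus carried the same identifier. No member matched the symbol table at hand. 1 gene the study named is not reported here. Alternatives were another pseudocount, filters, scalings, thresholds and sets of loci. Calculations used Python 3.11.15, numpy 2.4.6, pandas 2.3.3 and matplotlib 3.10.9 and were tested on simulated data.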

Additional observations from a re-analysis of the deposited data

How the results depend on the processing

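The members numbered 289 with a pseudocount of 0.1, 53 after rescaling to equal sums, 30 at a threshold of 1.5 and 7 at 2, where the limit on DT moved too. DT(D) was above and below DT(C) for 127 and 162 of them with that pseudocount, 21 and 32 after rescaling, 9 and 21 at 1.5, and 2 and 5 at 2. The share of members at least 1 higher in DT(D) than in DT(C) was 2.08% with the pseudocount, 1.89% after rescaling, 1.77% after centring within groups and 1.27% with loci lacking an identifier, and 0% past 1.5 or 2 at those thresholds. For DT(C) above DS(C) the share was 9.34% with the pseudocount, 2.54% after median centring, 6.37% with loci lacking an identifier and 0% at 1.5 and 2. Of the 16151 loci, 1010 were this much higher with the pseudocount and 493 after median centring. For DT(C) below DS(C) the share was 10% of the 30 genes at 1.5 and 28.6% of the 7 at 2. Only 23 of those 30 and 3 of those 7 were among the 130. Of the 16151 loci, 98 were this much lower at 1.5 and 31 at 2.

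Counts over all loci moved as well. In DS(D) against DS(C), 359 loci were higher and 1002 lower (26.4% higher). With rescaling 1643 were higher and 488 lower (77.1% higher), and the median of all loci moved from -0.02 to 0.40. The higher loci were 601 with the pseudocount and 560 with loci lacking an identifier. At 1.5 and 2, 61 and 16 were higher and 419 and 212 lower. In DT(D) against DT(C), 93 and 26 were higher and 561 and 339 lower at these thresholds. In DT(C) against DS(C), 1418 were higher and 185 lower after rescaling (88.5% higher) and 493 and 582 after median centring (45.9%), against 66.6% as reported. At 1.5 and 2, 201 and 61 were higher and 98 and 31 lower. In DT(D) against DS(D), 392 loci were lower with FPKM of at least 1 in any condition and 393 with loci lacking an identifier. At 1.5 and 2, 166 and 49 were higher and 96 and 35 lower. The share higher was 67.0% as reported, 48.9% after rescaling and 56.5% after centring within groups.

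The pseudocount and the 3 scalings are the settings that can move a margin, and 93 of the 160 margins of named genes recomputed under them moved by 0.1 or more, 37 of 40 after rescaling. Requiring 1 identifier per locus gave 127 members. No paired analysis was possible because the values are pooled per condition, and leaving out a library or fitting a model over libraries was not run for the same reason. How far a low FPKM is limited by reads could not be computed.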

Other observations

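Among loci without a gene identifier, 27 met the same rule. Their median FPKM was 10.2 in DS(C), 2.53 in DS(D), 9.41 in DT(C) and 9.43 in DT(D), and their margins ran from 1.01 to 2.20.

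For 3 members another locus carried the same identifier and did not have the members' profile. The second locus of Ca_04688 measured 50.8 in DS(C), 63.8 in DS(D), 139 in DT(C) and 99.6 in DT(D), where the member itself was at 16.1, 4.57, 18.8 and 10.4. For Ca_13968 the member was at 2.52, 0.626, 2.77 and 4.21 and the second locus at 5.73, 5.58, 3.83 and 7.07 in the same order. For Ca_26256 the member was at 1.68, 0, 2.50 and 4.94 and the second locus at 0.527, 0.686, 0.591 and 0.890.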
